A study of Drosophila melanogaster with 35 samples.

Results

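Steady-state transcript levels of untreated Kc167 cells were measured on 2 of the 35 two-colour cDNA arrays of a study of the nuclear lamina in Drosophila melanogaster. These 2 arrays, numbered 3458 and 3459, were chosen by their titles and form a dye-swapped pair: labelled mRNA was hybridised together with labelled genomic DNA, with the mRNA in Cy3 on array 3458 and in Cy5 on array 3459. Kc167 is an established line derived from embryos. The labels of these arrays name no Dam construct, drug or hormone, and the cells were grown at 23 °C in Shields and Sang M3 medium with bactopeptone, yeast extract and fetal calf serum. Genomic DNA contains every gene, so its signal on a spot stands for how well that spot hybridises, apart from differences in copy number within the line. The labels do not say whether the 2 arrays came from separate cultures. Levels are therefore given per array, without a test across the pair.

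A further pair of groups was used, neither of which entered the levels. The first consists of 4 arrays of Dam-Lam over Dam from otherwise untreated Kc167 cells. In this method, DamID, the E. coli adenine methyltransferase Dam fused to Lam, the B-type lamin of the nuclear envelope, methylates DNA near the lamina, and cells expressing Dam alone serve as the reference. The second consists of 5 arrays of mRNA from cells grown with ecdysone over mRNA from cells grown without it, whose labels give no dose or time. Ecdysone is the steroid hormone that drives molting and metamorphosis.

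A growing cell spends a large part of its mRNA on the machinery of protein synthesis, energy supply, protein turnover and secretion, while genes of specialised tissues are transcribed elsewhere in the body. Kc cells are known for properties of hemocytes, the blood cells of the fly: they take up particles, secrete basement membrane and respond to ecdysone. Hemocytes comprise plasmatocytes, which engulf debris and lay down matrix, crystal cells, which hold prophenoloxidases for melanisation, and lamellocytes, which encapsulate parasites.

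Both arrays gave a value for 8485 of the 9006 rows in the deposited table. After averaging over rows that name the same gene there were 8076 units: 6981 genes with a single symbol, 230 rows that name several genes and 865 rows that the probe table does not name. The values are log ratios, taken here as log2, and were centred on each array's median, which lay at −0.22 on array 3458 and −0.20 on array 3459 as deposited. A centred value of 0 is thus the level of the middle row, and a step of 1 is a 2-fold difference in the ratio. Positive values were read as mRNA above genomic DNA. This direction is likely and not stated: it follows the order of the channels in the labels and the purpose of the genomic DNA in the design text. The ratio orders genes by signal of mRNA per signal of genomic DNA on the same spot, not by copies per cell or per length of transcript. With no spot intensities at hand, a low ratio cannot be told apart from a transcript that was not detected, and only the number of arrays can show the precision. In the text below, paired values are those of array 3458 followed by array 3459.

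The pair gave a similar order of genes. Across the 8076 units Pearson's r was 0.949 and Spearman's rho 0.946, as a description over units that share the same 2 hybridisations. The median absolute difference between the arrays was 0.286, and 715 units (8.85%) differed by more than 1. Array 3459 had the wider spread, with a median absolute deviation of 1.34 against 1.05. High genes stood 0.21 higher on array 3459 at the median and low genes 0.43 lower. With 1 array for each dye, dye and array cannot be told apart as sources of this, and the cause was not tested. Leaving out the genes past 1 in size brought r to 0.685.

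A unit was called high when its centred log2 was at least 1 on both arrays, and low when it was at most −1 on both. By this rule 2007 of the 8076 units were high (24.9%), 1952 were low (24.2%) and 4117 lay between. At the stricter size of 2 there were 866 high units (10.7%) and 304 low units (3.76%). The distribution had a longer upper arm: 105 units, 38 of them named genes, reached 5 on both arrays, while 23 units, 7 of them named genes, lay at −3 or less on both. The 5th and 95th percentiles of the mean of the arrays were −2.16 and 3.03, a 36.6-fold span in the ratio. A further 471 units were past 1 on a single array and 821 were past −1 on a single array; these count as neither.

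**Figure D1:**
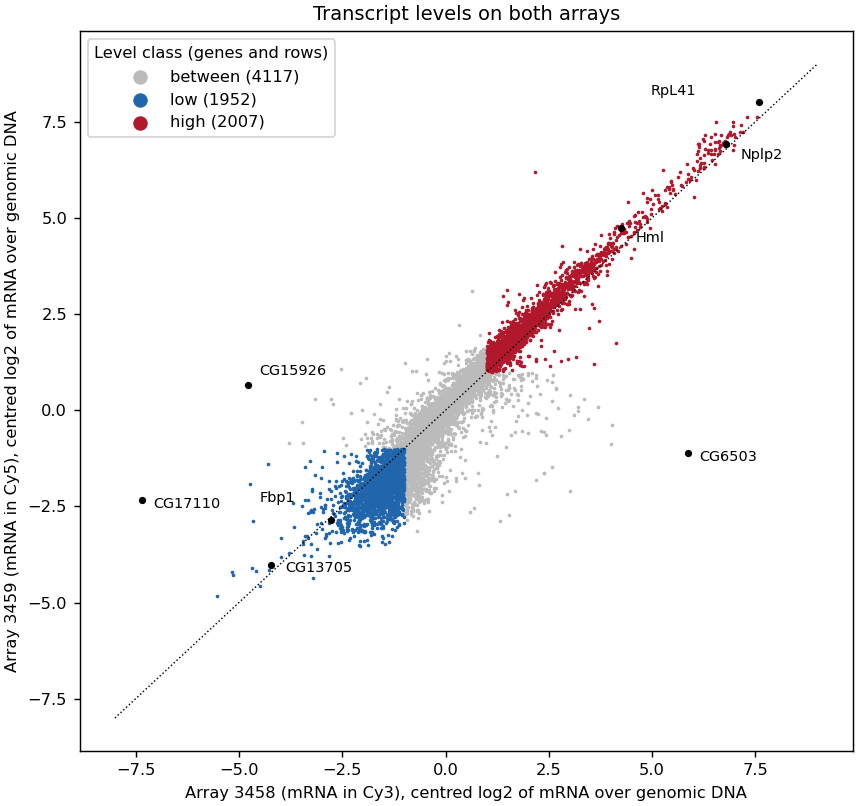
Centred log2 of mRNA over genomic DNA on array 3458 (horizontal, mRNA in Cy3) and array 3459 (vertical, mRNA in Cy5) for 8076 genes and unnamed rows; each point is one of them, the colour gives its level class and the dotted line marks equal values. RpL41 at 7.59 and 8.02 stands at the top, and the low end bends below the line. CG6503 at 5.88 and −1.12 is the gene on which the arrays differed most.

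The top of the list belonged to the ribosome. Of the 25 named genes with the highest levels, ranked by the lower of their 2 values, 17 encode proteins of the cytosolic ribosome. RpL41, a very small protein of the large subunit, was first with 7.59 and 8.02. RpS29 followed with 7.14 and 7.42, RpS28b with 7.13 and 7.22, RpLP2 of the ribosomal stalk with 6.95 and 7.50, and RpS26 with 6.95 and 7.40. RpL15, RpL27, RpL32, RpS18, RpS7, RpS15, RpL28, RpS30, RpL10Ab, RpLP0, RpL17 and RpL40 completed the group, the last with 5.50 and 5.76. These genes exceeded the middle row by more than 5 log2 units on either array, which follows from their places in the ranking.

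The 8 other genes among the 25 serve several functions. Nplp2, a neuropeptide-like precursor that fly hemocytes are known to secrete, held place 6 with 6.79 and 6.91. Rack1, a scaffold protein that sits on the small ribosomal subunit, had 6.44 and 6.51, and eEF5, the translation factor that carries hypusine, had 6.25 and 6.30. Cyp1, a cyclophilin that isomerises proline bonds, reached 6.18 and 6.42, and Tctp, a translationally controlled growth protein, 5.82 and 5.94. The kinase-like gene yata stood at 6.49 and 6.65, from 1 row whose identity was not tested. Loxl1, a lysyl oxidase relative, had 6.004 and 5.55, and Vmat, the vesicular monoamine transporter of neurons, 5.56 and 5.61. In the reference annotation (Release 6) 10 of the 25 gene models overlap another coding gene, so these values may not be those of 1 gene. The share over all genes was not counted, and models among the 25 lowest genes overlap others too. Vmat overlaps CG13330, CG13331 and CG13332, Loxl1 overlaps CG11334, RpL41 overlaps NaCP60E and RpL27 overlaps Idh3g, and the others are RpS28b, Rack1, RpS15, RpL28, Cyp1 and RpL10Ab.

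Places 26 to 45, looked at after their values were seen, added other abundant housekeeping products. ATPsynC, the ring subunit of the mitochondrial ATP synthase, had 5.45 and 5.94. The actin-binding proteins chic (profilin; 5.44 and 5.64) and cib (5.25 and 5.30) were near it, as was betaTub56D, the main beta tubulin (5.31 and 5.35). Both subunits of the nascent polypeptide-associated complex were there, Nacalpha with 5.19 and 5.25 and bic with 5.32 and 5.38. The ubiquitin-like modifier Sumo had 5.02 and 5.37, and the constitutive chaperone Hsc70-4 had 5.15 and 5.48. The histone variant His2Av, which serves as both H2A.Z and H2A.X in the fly, had 4.82 and 5.04.

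Among the 27 cytosolic ribosomal protein genes measured, 24 were high, 1 lay between and 2 were low, against 24.9% high and 24.2% low over all units. The list median was 6.11 on array 3458 and 6.66 on array 3459. All 11 proteins of the small subunit and 13 of 16 of the large subunit were high. The list was not uniform, however. RpL10Aa, a relative of RpL10Ab, was low with −1.91 and −2.25, where RpL10Ab itself had 6.11 and 6.73. RpS19b, a relative of the main RpS19 gene, had 1.21 and 1.14. RpLP1, which pairs with RpLP2 in the stalk, was low with −1.70 and −1.34, more than 8 log2 units under its partner on each array. It rests on 1 row, and whether that row measures RpLP1 was not tested.

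Translation factors followed: 26 of 35 were high, 6 between and 3 low, with list medians of 2.65 and 3.01. All 11 subunits of initiation factor 3, which holds the small ribosomal subunit open for the initiator, were high with a median of 3.00 over the mean of the arrays. eIF1, which helps to choose the start codon, had 4.65 and 4.88. The helicase eIF4A had 3.85 and 4.23, although its 3 rows ran from 1.97 to 5.73. The 3 low members were again relatives of general factors: eIF4E6 (−1.92 and −2.43), eIF4E5 (−1.84 and −2.12) and eIF3d2 (−1.45 and −2.18). Of the aminoacyl-tRNA synthetases, which load tRNAs, 10 of 13 cytosolic enzymes were high (median 1.48). By contrast, 0 of 8 mitochondrial ones were high and 2 were low (median −0.07). SerRS led with 2.86 and 3.06, and ValRS-m closed the list with −1.22 and −1.49.

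Oxidative phosphorylation was high at every complex. Of 56 genes, 45 were high, 5 between and 6 low, and the list medians were 2.62 and 2.90. The 21 subunits of complex I, 3 of complex II, 6 of complex III and 6 of complex IV were all high when the suffixed relatives described below are set aside, as were 9 of 10 subunits of the ATP synthase. Complex IV, cytochrome c oxidase, had the highest median of the 5 with 4.49, the ATP synthase had 3.90, and complex I 2.51. ATPsynbeta, the catalytic subunit, had 4.95 and 5.49, and ND-MLRQ 4.71 and 4.76. In glycolysis and the citrate cycle 11 of 13 genes were high. The cytosolic isocitrate dehydrogenase Idh led with 3.42 and 3.85, whereas Pfk, the phosphofructokinase that commits sugar to glycolysis, had −0.77 and −0.99. The mitochondrial ribosome stood much below the cytosolic one: 27 of its 52 measured proteins were high, 25 between and 0 low, with medians of 1.06 and 1.25.

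All 20 proteasome genes of the list, which leaves out the suffixed relatives described below, were high, with medians of 2.74 and 2.87. Of those relatives Prosalpha4T1, Prosalpha4T2, Prosbeta4R1, Rpn12R and Rpn13R were low. The 9 genes of the 20S core, the proteolytic barrel, had a median of 3.31 and ranged from 2.89 to 3.65. The 11 genes of the 19S cap, which binds and unfolds substrates, had a median of 2.31 and ranged from 1.66 to 3.02, so the 2 groups overlapped only slightly. Of 18 chaperone and chaperonin genes 15 were high (medians 2.80 and 3.24), among them all 6 measured subunits of the CCT ring that folds actin and tubulin. CCT2 had 3.99 and 4.33. The heat-inducible chaperones, measured in 4 genes, differed from these: Hsp26 was high with 2.66 and 2.83, Hsp27 had −0.14 and −0.60, Hsp68 −0.57 and −0.32, and Hsp70Ab was low with −2.15 and −1.95. Hsp70 genes are near-identical copies, so the Hsp70Ab row cannot be assigned to 1 of them.

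The secretory pathway had 23 of 28 genes high and 0 low, with medians of 1.94 and 2.32. The 3 subunits of the Sec61 translocon, the channel into the endoplasmic reticulum, stood at its head: Sec61beta with 3.89 and 4.19, Sec61alpha with 3.71 and 3.98, and Sec61gamma with 3.68 and 3.55. KdelR, which returns resident proteins to the endoplasmic reticulum, had 3.39 and 3.82. In the cytoskeleton 15 of 21 genes were high (medians 2.57 and 2.75). Moe, which ties actin to the membrane, had 3.75 and 4.09, and Arpc2 of the Arp2/3 complex had 3.41 and 3.50. The muscle tropomyosin Tm2 was low with −1.89 and −2.52.

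Nuclear functions were less high. Of 32 nuclear pore, lamina and transport genes 19 were high and 0 low (medians 1.16 and 1.34). The GTPase Ran, which sets the direction of nuclear transport, was far above the rest with 4.77 and 5.66. Elys, which seeds pores on chromatin, had −0.44 and 0.33. Of 27 chromatin genes 15 were high and 0 low. The histone chaperones Nap1 (4.04 and 4.25) and Nlp (3.91 and 4.07) and the gene of the heterochromatin protein HP1a (3.56 and 3.92) followed His2Av, while the Polycomb group genes Pc (−0.90 and −0.60) and Su(z)12 (−0.66 and −1.07) were at the lower end. Of 20 spliceosome genes 12 were high, led by the Sm protein SmE with 3.56 and 3.49, and 0 were low. In RNA polymerase II and its basal factors 11 of 35 were high and 0 low. The 3 polymerase subunits measured were all high (median 2.72), and Mediator, the bridge from activators to the polymerase, was high in 2 of 17 subunits (median 0.30).

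Replication and cell cycle genes were high in 16 of 37 cases and low in 0. Subunits of replication protein A, which coats single-stranded DNA, were highest: RPA1 had 3.62 and 4.33, RPA3 3.63 and 3.69, and RPA2 3.23 and 3.62. Of the 4 MCM helicase subunits measured 3 were high (median 1.60). None of the 4 subunits of the origin recognition complex that were measured was high (median −0.03). The kinase Bub1 of the spindle checkpoint had −0.90 and −1.01, and its partner Bub3 had 2.39 and 2.51. Both act in the same checkpoint, and their levels differed by more than 3 log2 units on each array.

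**Figure D2:**
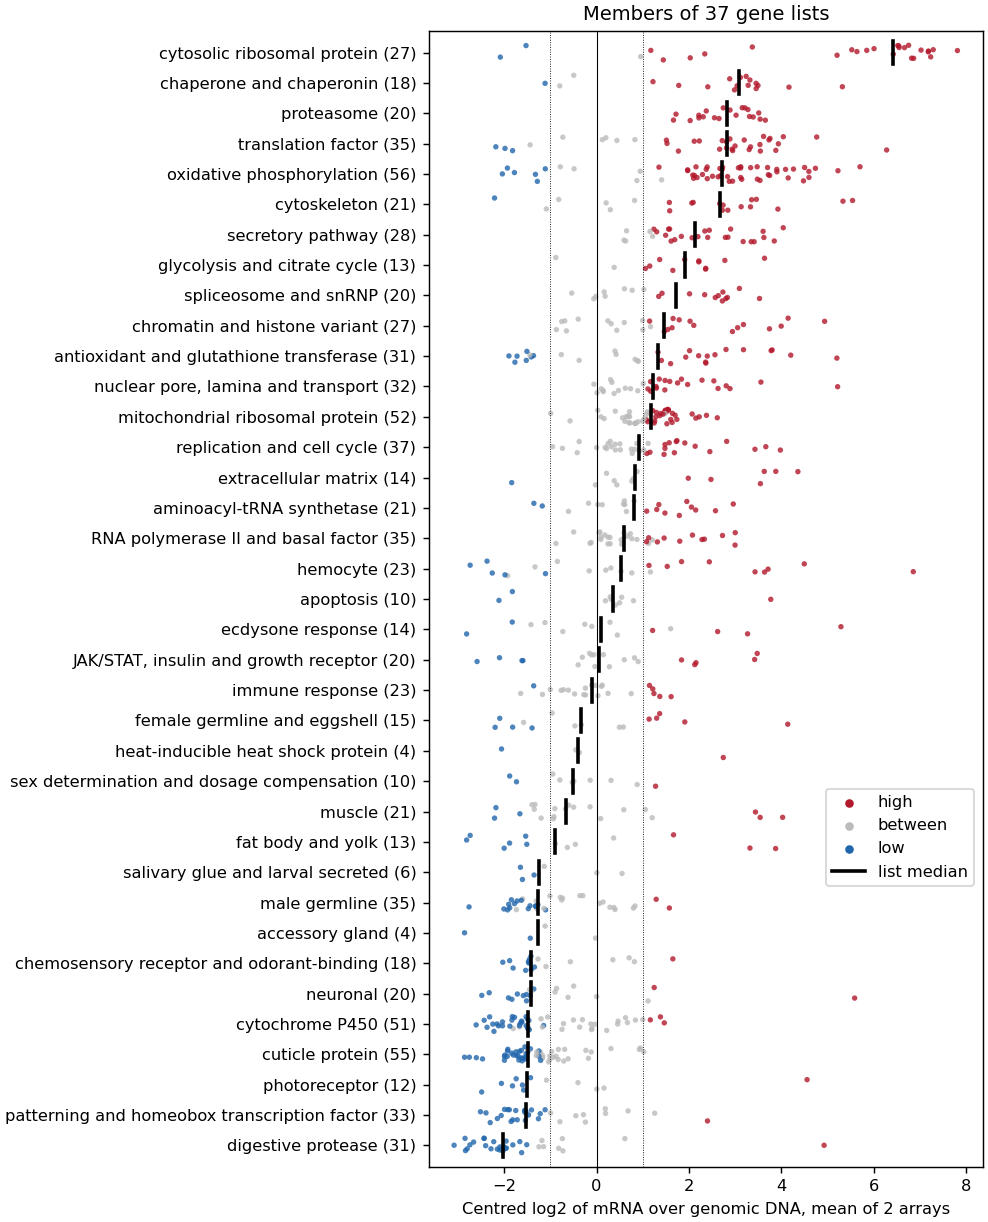
Centred log2 of mRNA over genomic DNA, as the mean of 2 arrays, for every measured member of 37 gene lists, ordered by list median (black bars); each point is a gene, coloured by its level class, and dotted lines mark −1 and 1. Cytosolic ribosomal proteins stand apart at a median of 6.42. All 20 proteasome genes of the list, which leaves out their suffixed relatives, are to the right of 1. Digestive proteases have the lowest median at −2.01, with Jon65Aiv as a lone point near 5.

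The 37 lists hold 894 different measured genes. By the mean of the arrays 13 lists had a median of at least 1 and 10 had a median of −1 or less. On array 3458 alone 8 lists had a median of −1 or less, as the neuronal (−0.94) and male germline (−0.93) lists missed it. On array 3459 alone there were 11. The 10 low ones are lists of digestive, photoreceptor, cuticle, neuronal, chemosensory, male germline, accessory gland and salivary genes, patterning factors and cytochrome P450 genes. Digestive proteases, lysozymes and maltases had 23 of 31 genes low and 1 high, with medians of −1.69 and −2.27. The gut chymotrypsin-like gene Jon99Ciii had −2.90 and −3.26, and the maltase genes Mal-A4 and Mal-A8 had −2.53 and −3.16 and −2.55 and −3.05. The exception was Jon65Aiv of the same protease family, with 4.88 and 4.96; it rests on 1 row, and whether that row measures Jon65Aiv was not tested.

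Patterning and homeobox transcription factors, which lay out the body plan, were low in 22 of 33 cases and high in 1. The exception was the pair-rule repressor hry (hairy), with 1.89 and 2.91. The homeobox gene unpg had −2.12 and −2.90, and hkb, which patterns the ends of the embryo, had −2.11 and −2.18. The engrailed relative inv had 2.19 on array 3458 and −1.81 on array 3459, so its level is not settled. Photoreceptor genes were low in 7 of 12 cases, among them the carotenoid receptor ninaD (−1.54 and −3.43) and the opsin Rh7 (−1.15 and −2.48). The phosphatase rdgC was the single high member with 4.26 and 4.84.

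Cuticle proteins had 0 of 55 high and 31 low (medians −1.35 and −1.66); TwdlN, a Tweedle protein of the larval cuticle, had −2.59 and −2.91. Cytochrome P450 genes had 3 of 51 high and 26 low. The 3 high ones were Cyp49a1 (1.17 and 1.76), Cyp6a23 (1.33 and 1.43) and Cyp6a8 (1.05 and 1.28), all just past the threshold, and shd, which makes the last step to active ecdysone, was at the bottom with −2.15 and −3.06. Chemosensory receptors and odorant-binding proteins were low in 11 of 18 cases. Neuronal genes were low in 10 of 20, such as the acetylcholinesterase Ace (−2.19 and −2.77) and the dopamine synthesis gene ple (−2.41 and −2.23). Besides Vmat, the synaptic vesicle chaperone Csp was the other high member with 1.19 and 1.31. Salivary glue and larval secreted genes had 0 of 6 high and 3 low. In the list of accessory gland names, 0 of 4 were high; it includes Acp65Aa and Acp1, adult cuticle proteins that share the name pattern.

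Germline lists were mixed. Of 35 male germline genes 2 were high and 15 low (medians −0.93 and −1.45). The testis tubulin betaTub85D had 1.35 and 1.80 and Mst84Da 1.22 and 1.36, while comr, a regulator of meiotic arrest genes, had −2.53 and −2.99. Of 15 female germline genes 5 were high (33.3%) and 4 low (26.7%), near the shares over all units. The nuage protein tud had 4.08 and 4.19. The germline helicase vas, a defining marker, was low with −2.16 and −2.22, and orb, an RNA-binding protein of the oocyte, had −1.88 and −2.31. Muscle genes had 3 of 21 high (14.3%), 15 between and 3 low (14.3%), both shares below the 24.9% and 24.2% over all units. The 3 high ones were the actins Act87E (3.92 and 4.13), Act88F (3.40 and 3.67) and Act79B (3.44 and 3.43). Fly actin genes are near-identical in their coding parts, so these rows can take up RNA of the cytoplasmic actins and are uncertain as levels of muscle actins.

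The hemocyte label was set against its markers. Of 16 hemocyte markers 13 were measured, 4 of them high (30.8%), 6 between and 3 low (23.1%), shares close to the 24.9% and 24.2% over all units. Hemolectin, Hml, a clotting protein of plasmatocytes, had 4.24 and 4.75, and Nplp2 had 6.79 and 6.91. The matrix proteins SPARC (3.49 and 3.77) and Ppn (1.87 and 2.10) were high too. The GATA factor srp, which specifies blood cells, had 0.10 and 0.52, Pxn −0.08 and 0.03 and the scavenger receptor crq −0.20 and −0.12, all near the middle row. The phagocytosis receptor NimC1 was low with −2.13 and −2.38, and eater had −1.13 and −0.56. The crystal cell prophenoloxidases were low as well, PPO1 with −1.67 and −3.07 and PPO2 with −1.03 and −1.18. Secreted markers fell on both sides of the threshold, since the collagen IV chains Col4a1 (0.72 and 0.81) and vkg (0.07 and 0.36) and the peroxidasin Pxn were not high. Col4a1 is the average of 2 rows that themselves lay on both sides of the threshold, at 0.34 and 1.19. In a bulk culture, fewer cells that make a transcript and less of it per cell cannot be told apart.

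Markers of other cell types were mostly low or near the middle, but few were measured. Over all units 24.9% were high and 24.2% low. Of 5 fat body markers measured 4 were low, among them the larval serum protein Lsp2 (−2.60 and −2.86), Fbp1 (−2.76 and −2.86) and the yolk protein Yp1 (−1.31 and −2.45). Of 6 neuronal markers 1 was measured, nSyb with −1.25 and −1.78, and the glia marker repo was not. Of 6 muscle markers 3 were measured, and these, Mlc1, Mlc2 and Prm, lay between −0.54 and −1.97. Of 4 gut markers 2 were measured, Mal-A1 with −2.09 and −2.70 and Jon25Bi with −0.90 and −1.47. In the male germline, betaTub85D was the 1 high marker with 1.35 and 1.80, aly had 0.58 and 0.18, Mst87F −0.80 and −1.48 and bam −1.41 and −1.21. Of 4 female germline markers 2 were measured, vas as given above and osk with −0.68 and −2.47. For sex, msl-2, a dosage compensation gene whose translation females block, had −1.61 and −2.14; Sxl, roX1 and roX2 had no value on this pair.

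The wider hemocyte list of 23 genes had 9 high (39.1%) and 5 low (21.7%) members, beside 24.9% and 24.2% over all units. Its medians were 0.25 and 0.81, and its members ran from −2.73 to 6.85 by the mean of the arrays. Among the high members Fer2LCH, the light chain of secreted ferritin, had 3.91 and 3.51. The lysosomal protease CtsB had 3.60 and 3.67, and glutactin, Glt, of the basement membrane had 3.22 and 3.63. Extracellular matrix genes were high in 6 of 14 cases. Plod, which hydroxylates lysines of collagen, had 4.09 and 4.62, the laminin chains LanB1 and LanA had 3.57 and 4.18 and 3.27 and 3.82, and PH4alphaEFB, a prolyl hydroxylase, had 2.31 and 2.64. Timp, an inhibitor of matrix proteases, was low with −1.12 and −2.55.

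Signalling and defence genes had no common level. Of 23 immune genes 5 were high (21.7%, near the 24.9% over all units) and 1 low. The high ones were cact, the inhibitor that holds Dorsal and Dif in the cytoplasm (1.37 and 1.86), the Toll adaptor tub (1.13 and 1.61), key of the IKK complex (1.30 and 1.18), the peptidoglycan sensor PGRP-LE (1.07 and 1.37) and the Toll ligand spz (1.06 and 1.23). The receptor Tl had −0.87 and −1.47, and the antifungal peptide Drs −1.07 and −1.65. Among growth factors and receptors Pvf2 (3.29 and 3.66) and its receptor Pvr (1.74 and 1.94) were high, whereas the other ligands Pvf1 (−1.35 and −1.84) and Pvf3 (−1.75 and −2.45) were low. The EGF receptor ligand spi had 3.11 and 3.73 and its receptor Egfr −2.02 and −3.15. Of 10 cell death genes 7 lay between the thresholds. The inhibitor BI-1 was the 1 high member with 3.62 and 3.91, and the death inducers grim (−1.90 and −1.74) and skl (−1.91 and −2.30) were the 2 low ones.

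Detoxification was divided by family. Glutathione transferases, which conjugate electrophiles, were high in 11 of 19 cases (median 1.93), in contrast to the P450 list. GstD1 had 5.15 and 5.24, GstO3 4.06 and 4.34 and GstE6 3.65 and 3.90, and GstD11 (−1.20 and −1.81) was low. The fat body and yolk list had 3 of 13 genes high (23.1%) and 6 low (46.2%), beside 24.9% and 24.2% over all units. Its high members included the desaturase Desat1 (3.73 and 4.02) and the fatty acid synthase FASN1 (3.05 and 3.59).

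Several high genes had a relative at a lower level. Symbols that differ by a closing L, T or R, with or without a number, were paired with their base gene, a rule chosen after the values were seen. It found 22 pairs over 19 base genes, 1 of which (GalT1 and Gal) matches in name only. In 20 pairs the suffixed relative was lower by at least 1, and the median difference was −4.26. Of the 22 relatives 12 were low, 9 between and 1 high, and 20 pairs had a high base gene. ATPsynbetaL had −1.04 and −1.60 against 4.95 and 5.49 for ATPsynbeta. COX4L had −0.57 and −0.99 against 4.33 and 4.62 for COX4. The proteasome relatives Prosalpha4T1 (−1.40 and −1.48) and Prosalpha4T2 (−1.13 and −1.07) stood far below Prosalpha4 (3.14 and 3.47). Rpn12R, SdhCL, Cyt-c1L and Prosbeta4R1 were low on both arrays too, against high base genes. Many such relatives are known from fly testis. Of the others, AhcyL1 was itself high with 2.15 and 2.63 against 3.28 and 3.62 for Ahcy, and lqfR lay close to lqf.

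**Figure D3:**
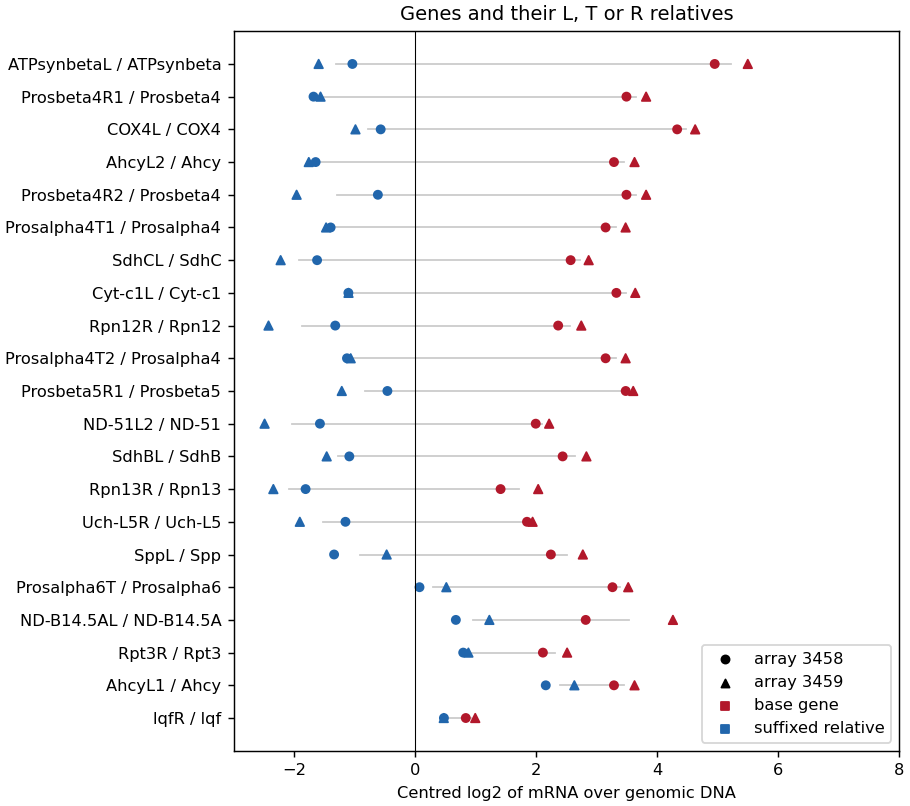
Centred log2 of mRNA over genomic DNA of 21 pairs of a gene (red) and a relative whose symbol adds L, T or R (blue), ordered by their difference; circles are array 3458, triangles array 3459, and grey lines join the means. In all pairs but lqfR and lqf the relative lies at least 1 lower by the mean, and on both arrays the red and blue marks of a pair keep their order.

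At the lower end of the list most genes have no given name. Of the 25 lowest named units, ranked by the higher of their 2 values, 15 are known by a CG number only, as are 53 of the 100 lowest and 6 of the 100 highest. CG13705 was lowest with −4.22 and −4.01, followed by CG7058 with −3.99 and −3.82. Genes with a name included the kinesin Kif3C (−3.98 and −3.33), the chitin deacetylase-like Cda4 (−3.34 and −3.32), the mucin Muc55B (−3.21 and −4.37), the receptor tyrosine kinase Tie (−2.80 and −3.44), the heart collagen prc (−3.32 and −2.66) and tld, the protease that frees Dpp from its inhibitor (−2.96 and −2.65). The models of Kif3C and prc each overlap another coding gene (CG32017 and CG43294), so their values may not be those of 1 gene. Over the whole array, 409 of 2693 genes with only a CG number were high (15.2%) and 875 low (32.5%). Of 4288 genes with a given name 1209 were high (28.2%) and 852 low (19.9%). Rows without an entry in the probe table were high in 330 of 865 cases (38.2%).

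Levels also followed the cDNA library from which a probe was cloned, read from the letters that open its ID. Probes of the ovary library GM were high in 54.4% of 406 rows and low in 5.17%. The embryo library LD had 38.5% high and 6.33% low among 2084 rows. At the other end, the adult testis library AT had 7.46% high and 50.4% low among 804 rows, and the larval and pupal library LP 12.4% and 42.7% among 372. The Schneider cell library SD, from another embryonic fly cell line, had 21.4% high and 14.4% low rows, both below the 25.1% high and 24.2% low over all rows. Among rows whose gene has only a CG number, GM and AT still stood at opposite ends, with 52.3% and 2.97% high. The gap between these libraries was thus about as large within such rows. The 2 embryo libraries differed from each other, since RE had 21.6% high and 36.8% low among 1768 rows. Other properties of the libraries, such as clone length or how they were normalised, were not tested.

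**Figure D4:**
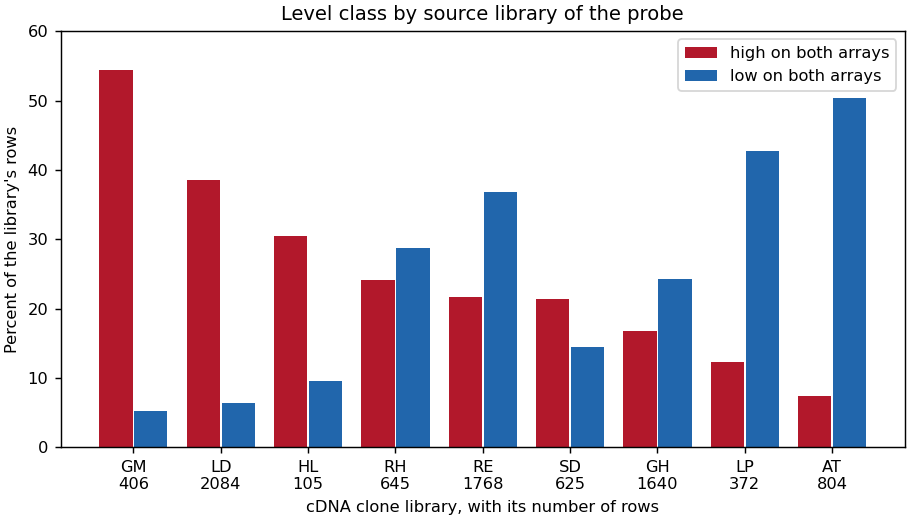
Percent of rows that were high (red) or low (blue) on both arrays, by cDNA clone library of the probe, with the number of rows under each name. GM (ovary) has 54.4% high rows and AT (adult testis) 50.4% low rows; LD and RE are from embryos, HL, RH and GH from heads, LP from larvae and pupae and SD from Schneider cells.

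The large chromosome arms differed little in level. On the 4 large autosomal arms the share of high genes ran from 21.5% (3R) to 25.5% (2L), and on X it was 24.2% of 1102 genes. The median level on X was 0.10. The small chromosome 4, rich in heterochromatin, had 16 of 46 genes high (34.8%) and a median of 0.51. Neighbours resembled each other to a degree: among 6845 adjacent pairs of measured genes, the second gene was high in 29.1% of cases when the first was high, against 23.4% over all pairs, and low in 35.4% when the first was low, against 24.5%. Gene length, introns included, differed between the classes. High genes had a median length of 2296 bp, low genes 2487 bp and genes between 2968 bp. The 38 genes at 5 or more on both arrays had a median of 1482.5 bp, and of 516 genes over 20000 bp 12.4% were high and 31.2% low.

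Lam ratios were compared with the levels next, since the design set lamina binding beside expression. On the 4 Dam-Lam arrays, limma with a dye term called 1639 of 8064 units higher than Dam (20.3%) and 1205 lower (14.9%) at a Benjamini-Hochberg adjusted p under 0.05. Of the 1950 low units tested, 836 were called higher (42.9%) and 89 lower (4.56%). Of the 2005 high units, 115 were called higher (5.74%) and 380 lower (18.95%). The median Lam ratio of the low class was 0.40, 0.42, 0.40 and 0.36 on arrays 2907, 2921, 2945 and 2955, and that of the high class −0.21, −0.19, −0.20 and −0.16. The medians of the 2 classes did not overlap. The difference of medians was 0.59 ± 0.04 (SD, n = 4 arrays), above 0 on 4 of 4, with a two-sided exact sign-flip permutation p of 0.125, the smallest that 4 arrays allow.

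The number of calls rested on single arrays far more than the medians did. Without array 2921 the calls fell to 6 higher and 0 lower among low units and to 0 and 2 among high units. Without array 2907 they were 126 and 3 among low units and 5 and 8 among high ones. Without array 2945 they were 988 and 126 among low units and 180 and 604 among high ones, and without array 2955 1016 and 194, and 226 and 663. The median of the low class stayed within 0.39 and 0.42 under each of these, and that of the high class within −0.205 and −0.191. Across the 8064 units r was −0.365 and rho −0.406, as a description over units that share probes. Most of the relation lay in the lower part of the range. The median Lam ratio was 0.49 in the lowest decile of levels and 0.31 in the third, and the share of units called higher was 49.1% in the lowest decile, 10.9% in the sixth and 4.46% in the highest.

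**Figure D5:**
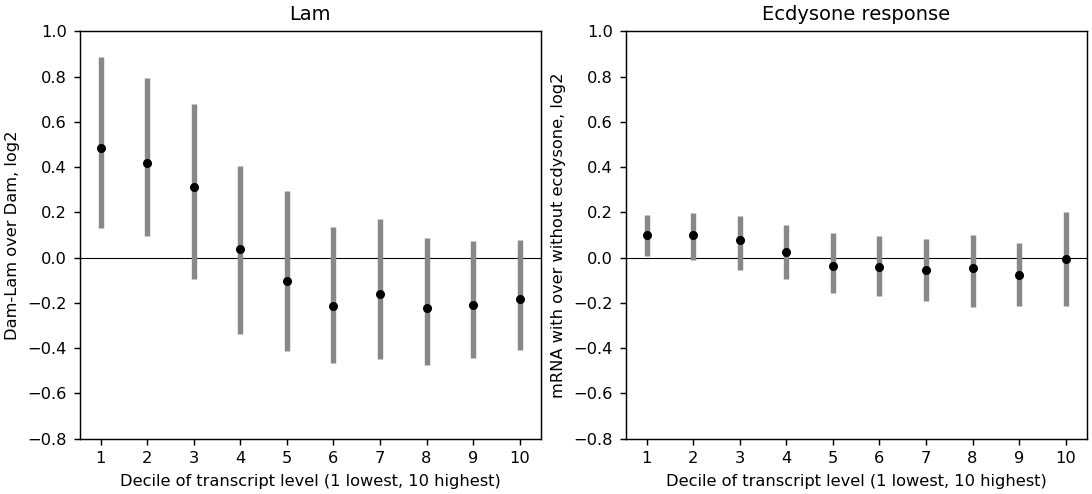
Log2 of Dam-Lam over Dam (left, 4 arrays) and log2 of mRNA with over without ecdysone (right, 5 arrays) in deciles of transcript level; points are medians over genes and bars run from the 25th to the 75th percentile of genes. The Lam median goes from 0.49 in the lowest decile to below 0 from the fifth decile on, while the ecdysone medians stay near 0.

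Named genes at both ends followed these shares. Of the 25 lowest genes 14 were called higher in Lam and 1 lower, and of the 25 highest 0 were called higher and 5 lower. CG13705, the lowest gene, had a Lam ratio of 1.26 ± 0.20 (SE; adjusted p = 0.00639, limma), whereas Kif3C, of similar level, had 0.04 ± 0.14 (adjusted p = 0.83, limma). Hml, among the high genes, had −1.04 ± 0.14 (adjusted p = 0.00437, limma). By list, 25 of 51 P450 genes (49.0%), 16 of 33 patterning factors (48.5%), 12 of 20 neuronal genes (60%) and 19 of 55 cuticle genes (34.5%) were called higher in Lam, beside 20.3% over all units. Some lists with many high members exceeded that share too. Antioxidant and glutathione transferase genes, high in 16 of 31 cases, had 10 called higher (32.3%) and 1 lower. Extracellular matrix genes had 5 of 14 called higher (35.7%) and 3 lower, and the hemocyte list 8 of 23 (34.8%) and 1 lower. In the nuclear pore list 18 of 32 were called lower (56.2%), beside 14.9% over all units, and 1 higher. Cytosolic ribosomal protein genes, with 5 of 27 called lower (18.5%) and 2 higher, were near that background, and 5 of 20 proteasome genes were called lower (25.0%). A low level did not imply a call: 1025 of the 1950 low units tested were called neither way. Testis genes, low in 15 of 35 cases, had 11 called higher (31.4%) and 6 lower (17.1%).

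The ecdysone arrays showed which of these levels changed with the hormone. limma with a dye term called 154 of 7090 units higher (2.17%) and 114 lower (1.61%). Among 1760 high units 48 were called higher (2.73%) and 51 lower (2.90%). Among 1543 low units 25 were called higher (1.62%) and 5 lower (0.324%). The per-array median change of the low class exceeded that of the high class on 5 of 5 arrays, by 0.15 ± 0.12 (SD, n = 5 arrays), with a two-sided exact sign-flip permutation p of 0.0625, the smallest that 5 arrays allow; array 3450 had the widest gap, 0.32. Whether the mRNA pool on the untreated side is the one measured here is not given in the labels.

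Some genes changed by a large amount, although their level with ecdysone was not measured against genomic DNA. Nplp2, place 6 among all named genes, fell by 2.58 on the log2 scale (SE 0.20, adjusted p = 0.00021, limma, n = 5 arrays). Gnmt, a glycine methyltransferase with levels of 4.17 and 4.15, fell by 2.50. RpL23, at 1.18 and 1.71, was the 1 ribosomal protein gene of 24 tested that was called, and it fell by 1.62. In the opposite direction Dtg, a Dpp target that was low with −1.11 and −2.06, rose by 4.32 (SE 0.18, adjusted p = 6.96e-06, limma, n = 5 arrays). NT5E-2, a nucleotidase gene, rose by 3.59 from −1.13 and −2.01, and Pepck2, a phosphoenolpyruvate carboxykinase, rose by 2.93 from −2.18 and −2.69. Hsp27, near the middle at −0.14 and −0.60, rose by 3.40. These named examples were picked for the size of their response.

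Of 14 known ecdysone response genes 6 were called higher and 0 lower, beside 2.17% and 1.61% over all units. Their untreated levels ran from −2.81 to 5.29 by the mean of the arrays, with 8 of 14 between the thresholds. Cth (formerly Eip55E), a cystathionine lyase, had 5.16 and 5.41, and MsrA (formerly Eip71CD), a methionine sulfoxide reductase, 3.15 and 3.38; both were called higher. ImpL2, a secreted insulin antagonist, had 2.49 and 2.75 and was called higher by 1.83. E23, an ABC transporter, had −0.92 and −1.30 and was called higher too. The nuclear receptor Hr3 had 3.22 on array 3458 and −0.01 on array 3459, so its untreated level is not settled. Fbp1, low with −2.76 and −2.86, was not called. Leaving out an array moved these calls: higher calls among high units ran from 17 to 129 and lower calls from 11 to 170, with the upper ends reached without array 3427.

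A minority of values should be read with care. The 5 genes on which the arrays differed most were CG6503 (5.88 and −1.12), CG15926 (−4.77 and 0.65), dhd (3.02 and −2.11), CG17110 (−7.33 and −2.35) and CG32611 (4.02 and −0.37). In all, 12 units lay at 1 or more on one array and at −1 or less on the other. Among 387 genes with several rows the rows differed by 0.52 at the median. They lay within 1 of each other in 258 genes (66.7%) and differed by more than 2 in 53 (13.7%). The neuroligin Nlg1 had rows at −2.18 and 4.87, the integrin mew rows at −0.49 and 6.10, and RpL39 rows at 0.77 and 5.97, so their averages describe neither row.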

How the data were processed

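The deposited values are log ratios of the 2 channels of each array, which the authors made with limma per the submitters' processing notes; not given in the sources used here are its version, the background correction, the normalization, the log base and the direction. They were taken as log2, of channel 1 over channel 2. Total RNA was extracted with TRIzol and T7-amplified, and genomic DNA was cut with DpnII, per the labels' protocols; amplification can change the proportions of transcripts. Arrays were centred on the median, and rows of a gene averaged through the platform's probe table; 7843 of 9006 rows name 1 gene. Of the genes, 6858 matched the Release 6 annotation, used only for names, arm, order, overlap and length. Lam (4 arrays) and ecdysone (5 arrays) ratios were tested against 0 with lmFit and eBayes of limma 3.58.1 (R 4.3.3) on units with values on at least 75% of arrays, with a dye term for each unit and Benjamini-Hochberg adjustment over all units; the code was tested on simulated data. p-values measure the spread between arrays, which may be technical. Genes named are the 25 highest and lowest, the first and last members of each list, all measured markers and the 5 largest array differences, not all of them printed; genes outside this rule were picked after their values were seen. The arrays, lists and members were chosen with earlier results of these data known. The other 24 arrays were not used.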

Additional observations from a re-analysis of the deposited data

Results flagged for a closer look

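In 6 sets of per-array class medians, 1 array stood apart from the rest by Dixon's test, which chance does in about 1 of 20 such sets. The median ecdysone change of the high genes was −0.21 on array 3450 and between −0.05 and 0.01 on the other 4 arrays. Without array 3450 the median over these genes was −0.01 in place of −0.06, and the calls among them were 25 higher and 16 lower in place of 48 and 51. The cause was not tested.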

How the results depend on the processing

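No paired analysis was possible because array numbers are unique to a group. The promoter motifs were not analysed here. Of 222 recomputed list medians 179 moved by less than the SD of the 2 array medians, and 40 moved further without a change of sign. The other 3 changed sign, all near 0. The JAK/STAT, insulin and growth receptor list was −0.15 as deposited, and the ecdysone response list −0.12 as deposited and −0.039 with rows taken singly. Of 250 recomputed gene levels 0 changed sign. A threshold of 2 left 866 high and 304 low units, 9.17% high and 2.90% low on X, and 19.6% and 2.17% on chromosome 4. It gave Lam calls of 39 higher and 139 lower among high units and 147 and 16 among low ones, and ecdysone calls of 23 and 28, and 1 and 1. Without the genes past 1 in size, r between arrays was 0.685. Without a dye term, 2 low units were called lower with ecdysone. Leaving out each array gave Lam calls of 0 to 226 higher and 2 to 663 lower among high units, and 6 to 1016 and 0 to 194 among low ones. For ecdysone these were 17 to 129 and 11 to 170, and 10 to 61 and 0 to 44. By construction such fits have fewer arrays; no other cause was tested. With 2 arrays and no intensities, levels near the floor have no firm order.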

Other observations

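Further families, grouped by their symbols after the values were seen, showed levels not described above. The vacuolar ATPase, which acidifies lysosomes and secretory vesicles, had 12 of 16 genes high, from Vha26 with 4.56 and 5.05 down to Vha36-2 with −1.93 and −2.25. Sorting nexins, which shape endosomes, were high in 6 of 7 cases (median 1.98). The tetraspanins of the Tsp42E cluster, neighbours on chromosome arm 2R, were divided: Tsp42Ed (3.45 and 3.38), Tsp42Ee (3.03 and 3.20) and Tsp42El (3.01 and 3.00) were high, while 7 of the 13 measured were low, such as Tsp42Eh with −1.30 and −2.83. The imaginal disc growth factors, secreted chitinase-like proteins, were divided as well. Idgf6 had 3.93 and 4.32 and Idgf3 2.43 and 2.77, whereas Idgf5 had −1.47 and −2.36.

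Families at the low end were the Osiris genes, with 0 of 14 high and 11 low, the alkaline phosphatases, with 0 of 9 high and 6 low, and the mucins, all 6 of which were low. Osi24 had −1.94 and −3.15, Alp10 −2.13 and −2.73 and Muc26B −2.39 and −2.61. Against 24.2% low over all units these shares are descriptions of groups picked for their levels.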
